A study of Mus musculus with 16 samples.

Results

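Histone deacetylases and core histones were measured in mouse liver tumors and control livers on a reverse-phase protein array, in which tissue lysates are spotted and each spot is probed with an antibody. The antibodies described are all rows of the array whose symbol is HDAC2, HDAC3, HDAC6, HIST1H2BB, HIST1H3A or HIST1H4A. They are 11 of the 158 antibodies on the array. Of these, 5 are named for a protein alone (HDAC2, HDAC3, HDAC6, histone H2B and histone H3) and 6 for a modified histone, 5 of them on H3 and 1 on H4. The antibody names were read here as acetylation (A), dimethylation (DM), trimethylation (TM) or phosphorylation (P) of the residue that follows, so that HIST1H3A_A-K18 is H3 acetylated at lysine 18.

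All samples came from male C3H/HeJ mice, 16 in all. The series describes injection of diethylnitrosamine (DEN), a liver carcinogen, at 10 or 90 µg per g of body weight and at 2 or 6 weeks of age, and doses and ages were not assigned to samples here. The arm given phenobarbital (PB), a drug that promotes liver tumors in rodents, held 7 Ctnnb1-mutated tumors and 3 control livers, numbered 4 to 6. In the arm without PB there were 3 Ha-ras-mutated tumors and 3 control livers, numbered 1 to 3. Ctnnb1 encodes beta-catenin, which carries Wnt signals to target genes, and Ha-ras encodes a small GTPase upstream of the MAP kinase cascade. Each tumor genotype came from a single arm, so genotype and PB cannot be told apart in a comparison of the tumors. The length of PB treatment is 28 to 36 weeks of a 0.05% diet in the series text, 27 weeks in the sample characteristics and 28 days of drinking water in the sample protocols. No label says that replicates came from separate animals, so p-values reflect the spread among these 16 samples and that spread may be technical.

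Histone deacetylases remove acetyl groups from lysines. HDAC2 and HDAC3 are nuclear enzymes that act on histone tails within corepressor complexes, and HDAC3 in mouse liver is known for restraining lipid synthesis genes together with the nuclear receptor corepressors. HDAC6 is mainly cytoplasmic and acts on alpha-tubulin and HSP90. Histones H2B, H3 and H4 are the proteins around which DNA is wrapped. Acetylation at lysine 18 of H3 and lysine 8 of H4 and dimethylation at lysine 4 of H3 mark active chromatin, trimethylation at lysine 27 marks chromatin silenced by Polycomb proteins, and phosphorylation at serines 10 and 28 marks condensed mitotic chromosomes and, in interphase, genes induced by growth factor signalling. HIST1H2BB, HIST1H3A and HIST1H4A match the mouse genes H2bc3, H3c1 and H4c1 as synonyms in the RefSeq table of GRCm38.p6. Each stands for a histone encoded by many near-identical genes, so the signals are those of the protein and not of that gene.

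Signals were deposited as relative fluorescence intensity (RFI). The median RFI over antibodies ran from 0.466 to 0.791 between samples, so levels are given below relative to each sample's median. Of the 158 antibodies, 146 could be matched to a blank probed with secondary antibody only, and 91 gave at least 2 times their blank in all 16 samples. The array held 6 antibodies to 4 of the 9 hepatocyte markers listed and none to the leukocyte, endothelial, stellate cell and fibroblast or bile duct markers listed, so the share of other cells could not be read. In such lysates, fewer cells of a type and less protein per cell cannot be told apart. Ctnnb1 tumor 6 stood apart in 4 of the 6 hepatocyte antibodies. GLUL (glutamine synthetase, a beta-catenin target in liver) read -0.0233 RFI in it and 9.30 to 54.1 in the other 6 Ctnnb1 tumors, and CYP1A2_1 read 1.02 RFI against 10.4 to 27.4. The 2 antibodies to CYP2E1 were also lowest there, while CYP1A2_2 at 0.529 RFI lay within the 0.401 to 0.610 of the other 6 and HNF4A at 1.47 within their 1.35 to 1.55. The HDAC differences described first are therefore also given without it.

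The 11 antibodies differed in how far they rose above their blank. HIST1H3A was 67.1 to 348 times its blank. HIST1H3A_P-S28 was 8.18 to 23.9 times its blank, HIST1H2BB 5.78 to 12.7 times, HIST1H4A_A-K8 5.12 to 9.87 times and HIST1H3A_A-K18 2.80 to 3.70 times. These 5 antibodies were at 2 times their blank or more in all 16 samples. The other 6 fell below that limit in some samples, HDAC2 in 1, HDAC3 in 2, HIST1H3A_DM-K4 in 3, HIST1H3A_TM-K27 in 8, HDAC6 in 9 and HIST1H3A_P-S10 in 15. HDAC6, HIST1H3A_P-S10 and HIST1H3A_TM-K27 share a blank, and that blank read 0.189 RFI in no-PB control liver 2, 0.143 in no-PB control liver 3 and 0.135 in Ctnnb1 tumor 7 against 0.0467 to 0.0950 in the other 13 samples. The values keep the blank signal, and taking it off can change the size and, for uncalled differences, the sign of what a dim antibody shows. With the blank subtracted, the uncalled HDAC6 difference of PB against no-PB control liver went from -0.45 to 0.35 on the log2 scale, and that of HIST1H3A_TM-K27 in Ha-ras tumors against no-PB control liver from -0.02 to 1.01. Both rest in part on a floor, since values left under 0.1 times the blank were set to that level. HIST1H3A_TM-K27 was 0.585 and 0.799 times the blank in no-PB control livers 2 and 3, and HDAC6 0.781 times in number 2. The blank was matched to these antibodies in the PB arm only.

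**Figure D1:**
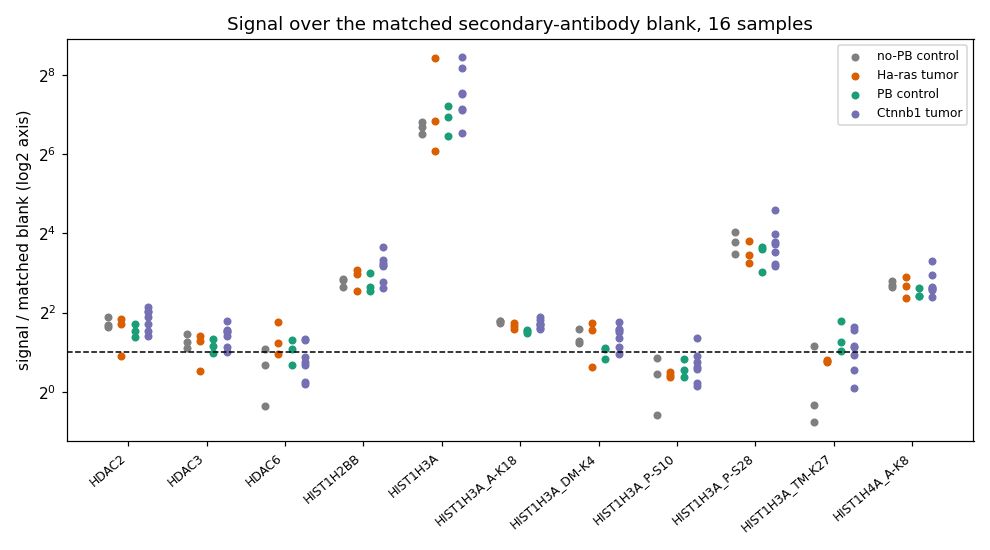
Signal of each of the 11 antibodies divided by its matched secondary-antibody blank (log2 axis), with a point per sample coloured by group and a dashed line at 2 times the blank. HIST1H3A sits at 67.1 to 348 times its blank, while 15 of the 16 points of HIST1H3A_P-S10 lie under the line.

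Relative to the sample median, the HDAC2 and HDAC3 signals were lower in the Ctnnb1 tumors than in PB control liver in these samples. Neither difference passed the test across all antibodies. HDAC2 read 0.915, 0.884 and 0.894 times the sample median in the 3 PB control livers. In the 7 Ctnnb1 tumors it read 0.630 at the lowest, 0.719 at the median and 0.871 at the highest, so every tumor lay below every control. HDAC3 read 0.706, 0.679 and 0.672 times the sample median in the PB control livers and 0.445, 0.556 and 0.667 at the lowest, median and highest of the Ctnnb1 tumors, again without overlap. The difference was -0.32 ± 0.10 on the log2 scale (SE, limma; 95% confidence interval -0.54 to -0.10; adjusted p = 0.250) for HDAC2. For HDAC3 it was -0.33 ± 0.11 (limma, interval -0.57 to -0.09, adjusted p = 0.250).

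These were the 2 of 11 members with an unadjusted p under 0.05, which 15.8% of all antibodies had. No member passed the adjusted threshold of 0.05, and limma called 0 of 158 antibodies in this comparison (0%). Groups that did not overlap, with all tumors lower, were found for 8.23% of antibodies. The median log2 difference of all 158 antibodies was itself -0.14 and that of the 11 members -0.18. Relative to the median of all antibodies, HDAC2 differed by -0.18, a value that a shift of whole samples cannot change, and by -0.13 after quantile normalization. The authors' deposited value table gave a log2 difference of -0.01 for HDAC2 and 0.04 for HDAC3 in the same fit. Without Ctnnb1 tumor 6 the differences were -0.34 and -0.36 (adjusted p = 0.246 for both). HDAC2 and HDAC3 share 1 blank. It read 0.145, 0.171 and 0.211 RFI in the PB controls and 0.0867 to 0.183 in the Ctnnb1 tumors. With it subtracted, the log2 differences were -0.19 for HDAC2 (limma adjusted p = 0.648) and -0.13 for HDAC3 (adjusted p = 0.825). Over that blank, mean signal was higher in the Ctnnb1 tumors. It was 3.58 against 2.92 times for HDAC2 and 2.72 against 2.23 for HDAC3. The part of the blank in these differences was not tested.

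In the arm without PB, HDAC2 was 0.831, 0.826 and 0.804 times the sample median in the control livers and 0.762, 0.695 and 0.709 in the Ha-ras tumors. All 3 tumors were below all 3 controls, by -0.18 ± 0.12 on the log2 scale (limma, interval -0.45 to 0.08, adjusted p = 0.433). HDAC3 read 0.622, 0.631 and 0.540 times the sample median in the no-PB controls and 0.515, 0.570 and 0.541 in the Ha-ras tumors, and here the groups overlapped (-0.14 ± 0.13, limma adjusted p = 0.675). HDAC2 was the single member whose groups did not overlap in this comparison, where 25.9% of all antibodies did not.

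The tumor effect on HDAC2 did not pass the test of a difference between the arms (-0.14 on the log2 scale, interval -0.48 to 0.20, limma adjusted p = 0.691), nor did that on HDAC3 (-0.19, interval -0.56 to 0.18, adjusted p = 0.615). Between the tumors themselves, HDAC2 differed by -0.01 (interval -0.23 to 0.21, adjusted p = 0.986) and HDAC3 by 0.01 (interval -0.23 to 0.25, adjusted p = 0.986). In order of the group mean, HDAC2 was highest in PB control liver at 0.898 ± 0.016 times the sample median (SD, n = 3), followed by no-PB control liver at 0.820 ± 0.0145 (SD, n = 3). The Ctnnb1 tumors at 0.722 ± 0.0949 (SD, n = 7) and the Ha-ras tumors at 0.722 ± 0.0352 (SD, n = 3) were not separated beyond their spread.

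HDAC6 was lower in the Ctnnb1 tumors than in the Ha-ras tumors, and it was the single member that passed the test in any comparison. It read 0.254, 0.409 and 0.337 times the sample median in the 3 Ha-ras tumors, and 0.155, 0.199 and 0.255 at the lowest, median and highest of the 7 Ctnnb1 tumors. The highest Ctnnb1 tumor, number 7, lay just above the lowest Ha-ras tumor, number 1, and all other Ctnnb1 tumors lay below all Ha-ras tumors. The difference was -0.70 ± 0.22 on the log2 scale (limma, interval -1.17 to -0.23), which is 1.63-fold lower, with an adjusted p of 0.0373. Of all antibodies, 19% were called in this comparison and 13.3% were called lower. No member had groups that did not overlap here, while 15.2% of all antibodies had.

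The HDAC6 signal was weak. It was under 2 times its blank in 5 of 7 Ctnnb1 tumors and in 1 of 3 Ha-ras tumors. The call held in 7 of 18 alternatives run. It was lost with scaling to the Alexa647 rows (-0.51, limma adjusted p = 0.128), with the blank subtracted (-1.55, adjusted p = 0.0618) and without Ha-ras tumor 2 (-0.54, adjusted p = 0.173). Without Ctnnb1 tumor 6 the difference was -0.76 (adjusted p = 0.0344). Of the 6 hepatocyte antibodies, 4 were called higher and 1 lower in the Ctnnb1 tumors in the same comparison, and 1 was not called. The lower one was HNF4A, at 2.03 to 2.78 times the sample median in the Ctnnb1 tumors and 3.15 to 3.53 in the Ha-ras tumors. The summed signal of the 6 was 16.5 to 150 times the sample median in the Ctnnb1 tumors, with Ctnnb1 tumor 6 the lowest, and 9.42 to 15.4 in the Ha-ras tumors. A few bright antibodies weigh most in it, with GLUL at 91.6 of the 147 in Ctnnb1 tumor 1. The sum was therefore not read as hepatocyte content. The part of these markers and of PB in the HDAC6 difference was not tested.

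Against control liver, HDAC6 passed in neither arm. The no-PB control livers read 0.214, 0.280 and 0.508 times the sample median, a range that held 2 samples under 2 times the blank and all 3 Ha-ras tumors. The log2 difference of Ha-ras tumors was 0.07 ± 0.26 (limma, interval -0.49 to 0.63, adjusted p = 0.914). The PB control livers read 0.202, 0.236 and 0.248, within the range of the Ctnnb1 tumors (-0.18 ± 0.22, limma, interval -0.65 to 0.29, adjusted p = 0.623).

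**Figure D2:**
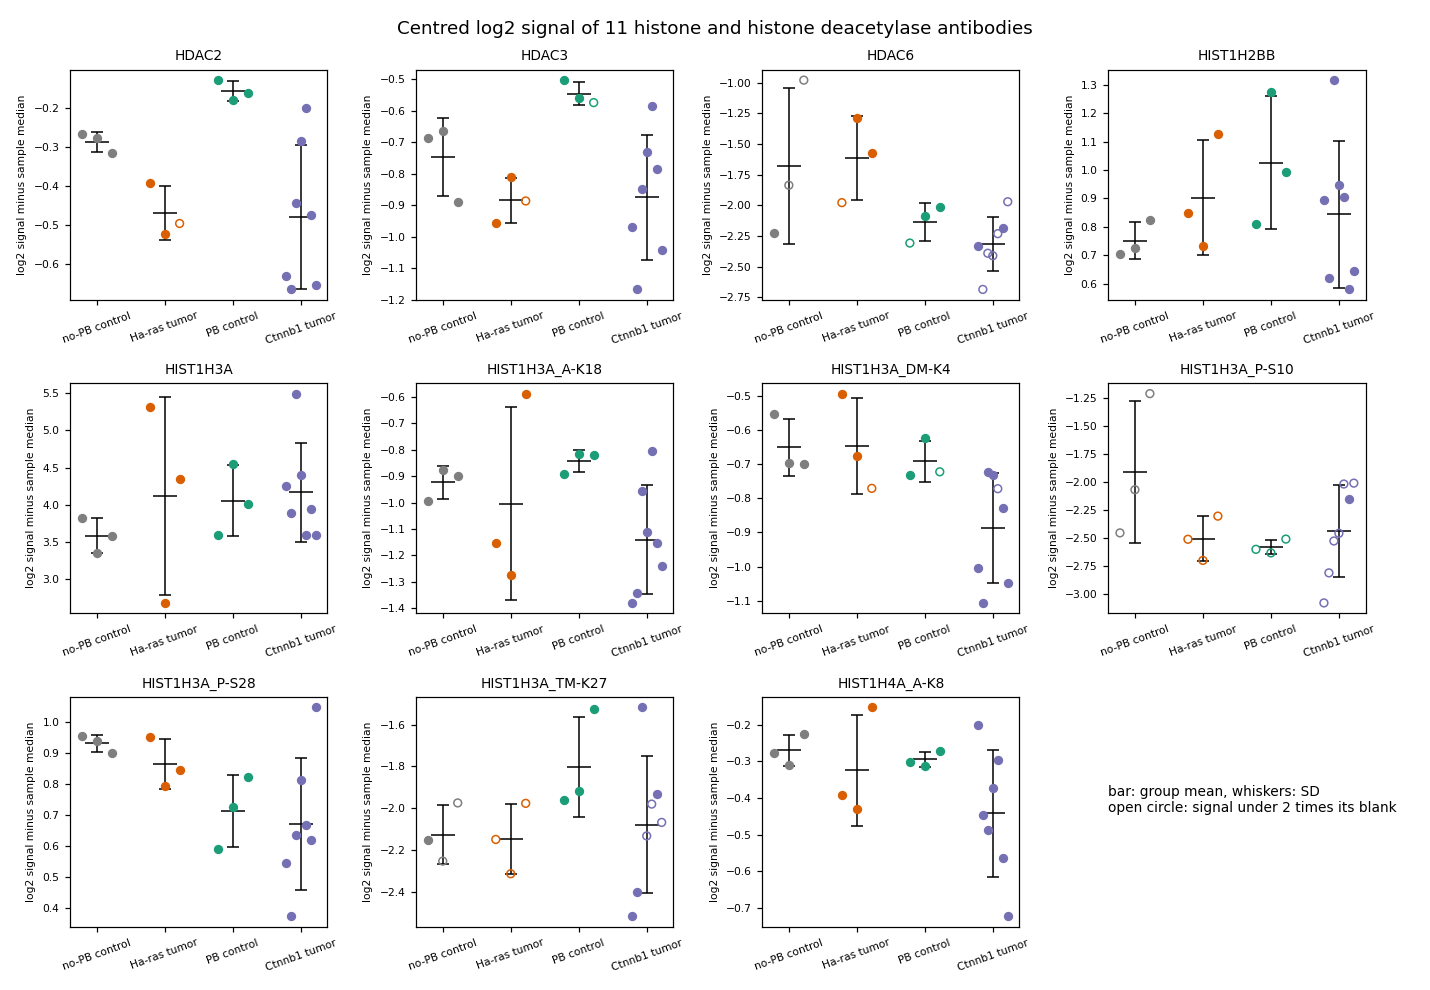
Log2 signal minus the sample median for each of the 11 antibodies, with a point per sample, a bar at the group mean and whiskers of 1 SD, and open circles for samples under 2 times the blank. Each panel has its own vertical axis. HDAC2 and HDAC3 lie lower in all 7 Ctnnb1 tumors than in the 3 PB control livers, and 5 of the 7 HDAC6 points of Ctnnb1 tumors are open.

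Total histone H3 varied more between samples than any other member. Its RFI ran from 3.25 to 29.7, a 9.14-fold range, and the SD of its centred log2 signal over the 16 samples was 0.71, rank 15 of 158 antibodies, where the median antibody had 0.25. HIST1H3A was 14.2, 10.2 and 11.9 times the sample median in the no-PB control livers and 39.9, 6.40 and 20.4 in the Ha-ras tumors. Ha-ras tumor 2 was thus the lowest of all 16 samples and Ha-ras tumor 1 the highest but for Ctnnb1 tumor 3. The PB control livers read 12.1, 23.4 and 16.2 times the sample median. In the Ctnnb1 tumors HIST1H3A was 12.1 at the lowest, 15.3 at the median and 45.1 at the highest.

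No group difference of H3 passed the test. Ha-ras tumors against no-PB control liver gave 0.53 ± 0.56 on the log2 scale (limma, interval -0.66 to 1.72, adjusted p = 0.710). That difference rested on single tumors. It was 1.25 without Ha-ras tumor 2 (adjusted p = 0.126) and -0.07 without Ha-ras tumor 1 (adjusted p = 0.972). Ctnnb1 tumors against PB control liver gave 0.11 ± 0.47 (limma, interval -0.90 to 1.12, adjusted p = 0.892). The SD of log2 H3 within a group was 0.24 in no-PB control liver, 0.48 in PB control liver, 0.66 in Ctnnb1 tumors and 1.34 in Ha-ras tumors.

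Histone H2B spread far less. HIST1H2BB read 1.63, 1.65 and 1.77 times the sample median in the no-PB control livers and 1.80, 1.66 and 2.18 in the Ha-ras tumors. In the PB control livers it read 1.75, 2.42 and 1.99, and in the Ctnnb1 tumors 1.49, 1.86 and 2.49 at the lowest, median and highest. Groups overlapped in each comparison made. The log2 difference was 0.15 ± 0.18 for Ha-ras tumors against no-PB control liver (limma adjusted p = 0.739) and -0.18 ± 0.15 for Ctnnb1 tumors against PB control liver (adjusted p = 0.470). Across the 16 samples H2B and H3 had a Pearson r of 0.63 and a Spearman rho of 0.63, as a description of points that share the sample median they were centred on. Ctnnb1 tumor 3 was highest for both.

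**Figure D3:**
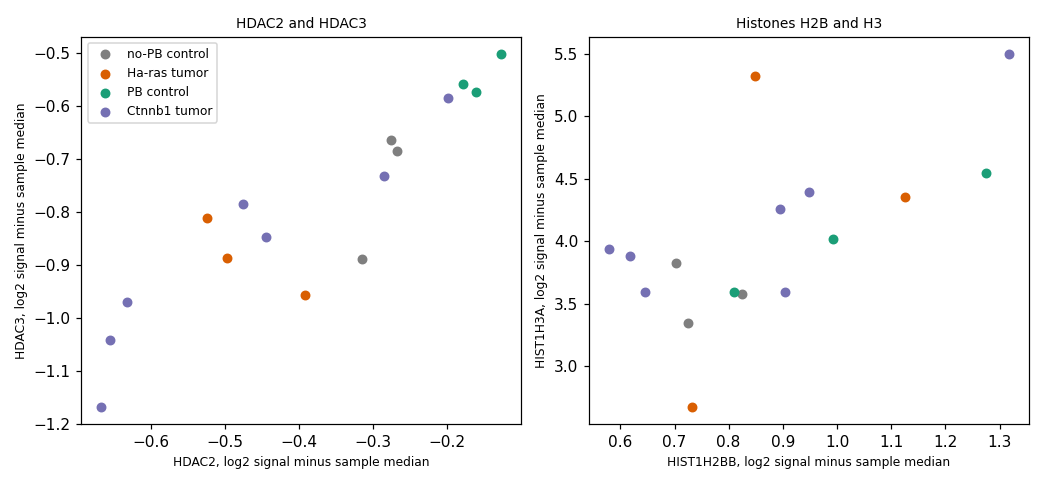
Log2 signal minus the sample median of HDAC3 against HDAC2 (left) and of HIST1H3A against HIST1H2BB (right), with a point per sample coloured by group. HDAC2 and HDAC3 order the samples alike (Pearson r of 0.91 over 16 samples, with a shared blank), and Ctnnb1 tumor 3 is highest for both histones.

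Among the histone marks of active chromatin, acetylated H4 was the steadiest. HIST1H4A_A-K8 had an SD of 0.15 over the 16 samples, rank 148 of 158 antibodies. It read 0.825, 0.807 and 0.856 times the sample median in the no-PB control livers and 0.763, 0.742 and 0.900 in the Ha-ras tumors. The PB control livers read 0.811, 0.806 and 0.828, and the Ctnnb1 tumors 0.606, 0.734 and 0.871 at the lowest, median and highest. Its log2 differences were -0.05 (interval -0.32 to 0.21) for Ha-ras tumors and -0.15 (interval -0.37 to 0.08) for Ctnnb1 tumors against their controls, with limma adjusted p-values of 0.851 and 0.443.

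H3 acetylated at lysine 18 was 0.539, 0.568 and 0.566 times the sample median in the PB control livers and 0.384, 0.450 and 0.573 at the lowest, median and highest of the Ctnnb1 tumors. All Ctnnb1 tumors but number 5 lay below the 3 controls. The log2 difference of -0.30 ± 0.14 did not pass (limma, interval -0.61 to 0.01, adjusted p = 0.324). In the Ha-ras tumors this mark read 0.450, 0.414 and 0.665, with tumor 3 above and the other two below the no-PB controls at 0.502, 0.545 and 0.535 (-0.08 ± 0.17, limma adjusted p = 0.851).

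H3 dimethylated at lysine 4 read 0.464, 0.563 and 0.605 times the sample median at the lowest, median and highest of the Ctnnb1 tumors, and 0.710, 0.625 and 0.586 in the Ha-ras tumors. The tumors differed by -0.24 ± 0.10 on the log2 scale (limma, interval -0.46 to -0.02), with an unadjusted p of 0.0335 and an adjusted p of 0.126, and 29.1% of all antibodies had an unadjusted p under 0.05 there. Against PB control liver at 0.602, 0.650 and 0.606, the Ctnnb1 tumors differed by -0.20 ± 0.10 (limma adjusted p = 0.335). For Ha-ras tumors against no-PB control liver the difference was 0.00 (interval -0.26 to 0.26, adjusted p = 0.992).

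The Polycomb mark gave no call. HIST1H3A_TM-K27 read 0.257, 0.265 and 0.347 times the sample median in the PB control livers, all at 2 times the blank or more, and 0.225, 0.210 and 0.255 in the no-PB control livers, of which 2 were under that limit. It was higher in every PB control than in every no-PB control, by 0.32 ± 0.21 on the log2 scale (limma adjusted p = 0.598). All 3 Ha-ras tumors were under the limit. The Ctnnb1 tumors read 0.175, 0.239 and 0.350 at the lowest, median and highest and differed from PB control liver by -0.28 ± 0.18 (limma, interval -0.66 to 0.10, adjusted p = 0.426).

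The signal of the antibody to H3 phosphorylated at serine 28 stood well above its blank, and that of the antibody to serine 10 hardly did. HIST1H3A_P-S28 read 1.94, 1.92 and 1.86 times the sample median in the no-PB control livers and 1.93, 1.73 and 1.80 in the Ha-ras tumors, so the groups overlapped. The log2 difference was -0.07 ± 0.14 (limma, interval -0.36 to 0.23, adjusted p = 0.851). In the PB control livers the signal was 1.50, 1.65 and 1.77, below all 3 no-PB controls (-0.22 ± 0.14, limma adjusted p = 0.598). In the Ctnnb1 tumors it was 1.29, 1.55 and 2.07 at the lowest, median and highest, on both sides of the PB controls (-0.04 ± 0.12, limma, interval -0.29 to 0.21, adjusted p = 0.883).

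HIST1H3A_P-S10 was under 2 times its blank in all samples but 1 Ctnnb1 tumor, so no fold or log2 difference is given for it in the text. Its RFI was 0.0887, 0.126 and 0.195 in the no-PB control livers, of which numbers 2 and 3 also had the highest readings of its blank, and 0.0929, 0.0784 and 0.0952 in the Ha-ras tumors. In the other arm it was 0.0854, 0.0909 and 0.108 in the PB control livers and 0.0700 to 0.151 in the Ctnnb1 tumors. It passed the test in none of the 5 comparisons, and signals this close to the blank do not bear on whether the level of the mark differed.

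Counted together, 0 of 11 members passed in Ha-ras tumors against no-PB control liver, where 13.9% of all antibodies did, and no member had an unadjusted p under 0.05, which 20.9% of all antibodies had. In PB against no-PB control liver 0 of 11 passed, beside 1.9% of all antibodies. There 1 member, HIST1H3A_P-S10, had an unadjusted p under 0.05 (limma), which 8.86% of all antibodies had. In that comparison of the controls 5 of 11 members had groups that did not overlap, beside 25.9% of all antibodies. Relative to the sample median, HDAC2, HDAC3 and HIST1H3A_TM-K27 were higher with PB, and HIST1H3A_P-S10 and HIST1H3A_P-S28 lower. The blank of HDAC2 and HDAC3 was also higher with PB, at 0.145 to 0.211 RFI against 0.110 to 0.140. Over that blank the mean signal was lower with PB, at 2.92 against 3.33 times for HDAC2 and 2.23 against 2.42 for HDAC3. HIST1H3A_P-S10 was under 2 times its blank in all of these controls, so neither count bears on the level of that mark. The difference of the tumor effects between the arms passed for 0 of 11 members and for 5.06% of all antibodies, and no member had an unadjusted p under 0.05, which 17.7% of all antibodies had. Member medians lay close to those of all antibodies, at -0.05 against -0.0016 on the log2 scale for Ha-ras tumors against controls, 0.08 against 0.06 for PB against no-PB control liver and -0.06 against -0.11 for the tumors. The comparisons share samples, since each control group enters both the comparison with its tumors and that of the controls.

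**Figure D4:**
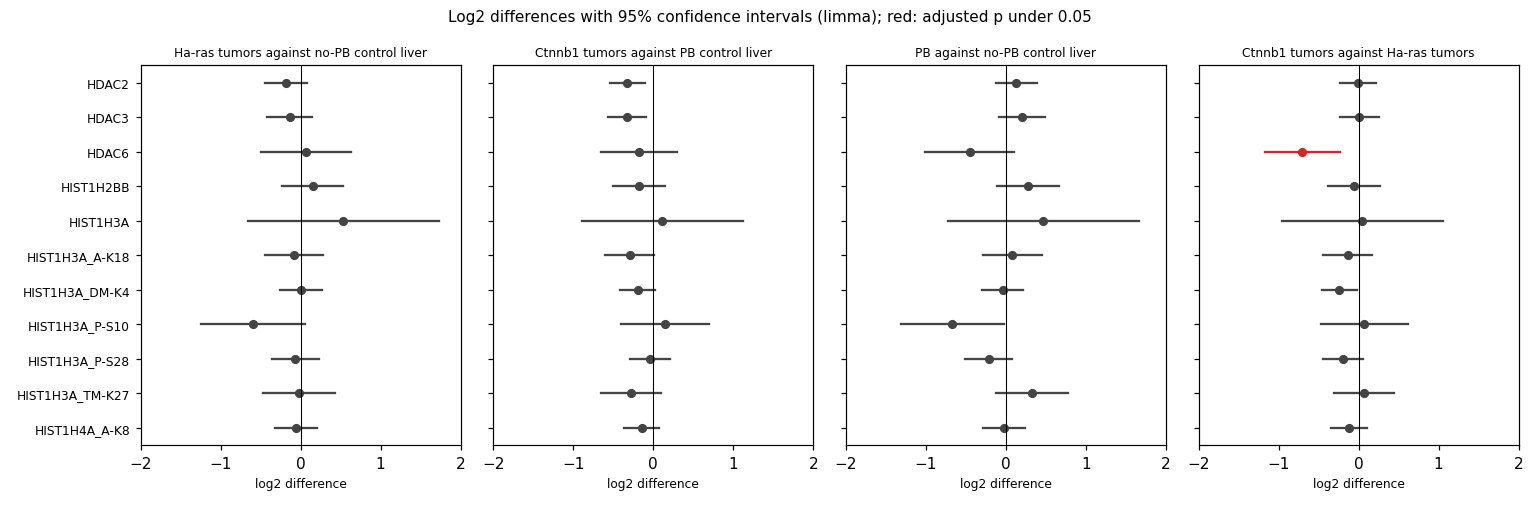
Log2 difference (point) and its 95% confidence interval (line) from limma for the 11 antibodies in 4 comparisons, with antibodies past an adjusted p of 0.05 in red. HDAC6 between the tumors, at -0.70, is the red one, and the intervals of HIST1H3A are the widest in each panel. HIST1H3A_P-S10 is drawn too, but it was under 2 times its blank in 15 of 16 samples and its differences are not interpreted.

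Set against total H3, the log2 ratios of the 5 modified forms largely mirrored the spread of the total, which is their denominator. The signals of the forms themselves followed it little, with a Pearson r to HIST1H3A of -0.25 to 0.37 over the 16 samples. The log2 ratio of HIST1H3A_P-S28 to HIST1H3A was -2.87, -2.41 and -2.68 in the no-PB control livers and -4.37, -1.88 and -3.51 in the Ha-ras tumors. Ha-ras tumor 2, which had the least H3, had the highest ratio of all 16 samples for HIST1H3A_P-S28, HIST1H3A_A-K18 and HIST1H3A_DM-K4, and the Ha-ras tumors lay on both sides of their controls for these 3 forms. The ratio of HIST1H3A_P-S28 was -3.00, -3.82 and -3.19 in the PB control livers, below all no-PB controls (-0.68 ± 0.56, limma, adjusted p = 0.674 over 49 modified-to-total pairs). Ratios of the other forms overlapped between groups in each comparison.

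None of the 5 forms passed in any of the 5 comparisons. HIST1H3A_P-S10 and HIST1H3A_TM-K27 were near their blank in many samples, so differences of their ratios are not given. For the other 3 forms the differences ran from -0.61 to -0.53 in Ha-ras tumors against no-PB control liver, where 8.16% of the 49 pairs on the array were called. In Ctnnb1 tumors against PB control liver they ran from -0.41 to -0.15, with 2.04% of pairs called. Between the tumors they ran from -0.29 to -0.19, with 18.4% of pairs called. Neither PB against no-PB control liver (0% called) nor the difference between the arms (4.08% called) gave a member pair.

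**Figure D5:**
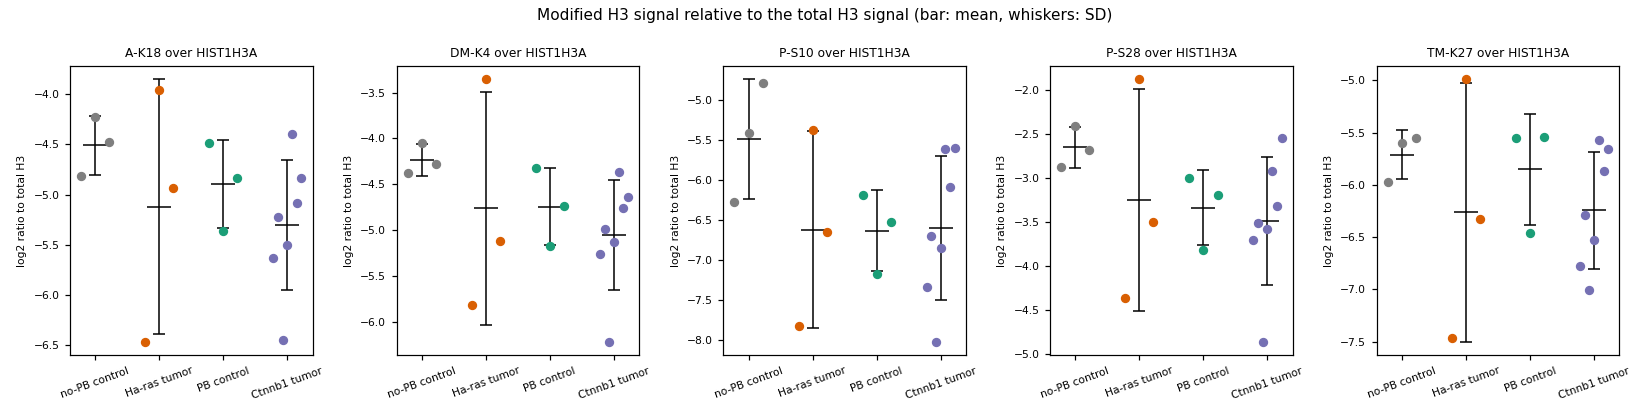
Log2 ratio of each of the 5 modified H3 signals to the total H3 signal, with a point per sample, a bar at the group mean and whiskers of 1 SD. The 3 Ha-ras tumors spread most in each panel, from -4.37 to -1.88 for serine 28.

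Kinases that phosphorylate H3 at serines, and kinases upstream of them, were on the array as 12 antibodies to a list of 10 symbols. In Ha-ras tumors against no-PB control liver 3 of the 12 were higher and none lower, where 13.9% of all antibodies were called. RPS6KA1_P-T573, an activation site of the growth factor-responsive kinase RSK1, rose 1.94-fold (0.96 ± 0.13 on the log2 scale, limma adjusted p = 2.2e-04). RPS6KA3_P-T353/T356 on RSK2 rose 1.74-fold (adjusted p = 0.0056) and PAK1_P-S141 rose 1.50-fold (adjusted p = 0.0259). Signal of H3 phosphorylated at serine 28, given above, differed by -0.07 in those samples. In Ctnnb1 tumors against Ha-ras tumors, where 13.3% of all antibodies were called lower, 3 of the 12 were lower, RPS6KA1_P-T573 by 2.14-fold, RPS6KA3_P-T353/T356 by 2.08-fold and RPS6KA1_P-S380 by 1.86-fold (limma adjusted p = 2.75e-06, 5.35e-05 and 0.00482). No blank was matched to RPS6KA1_P-S380, so its height above background was not assessed. Its RFI of 0.402 to 1.04 in the Ha-ras tumors overlapped the 0.347 to 0.560 of the Ctnnb1 tumors. The difference between the arms was lower for RPS6KA1_P-T573 and RPS6KA3_P-T353/T356, by -0.92 ± 0.17 and -1.04 ± 0.22. None of the 12 passed in Ctnnb1 tumors against PB control liver or between the control groups. The Aurora kinases, which phosphorylate H3 in mitosis, were called in none of the 5 comparisons. AURKA was under 2 times its blank in 7 of 7 Ctnnb1 tumors, 2 of 3 PB control livers and all samples of the other arm. AURKA_P-T288/T232/T198 was under it in 6 of 7 Ctnnb1 tumors and all samples of the other 3 groups. The blank of these 2 antibodies was matched in samples of the PB arm only, so their counts in the other arm rest on a blank not matched there. For these 2 antibodies the lack of a call does not bear on whether the level differed. AURKB was under that limit in no sample.

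Substrates, partners and kinases of histone deacetylases were on the array as 12 antibodies to a list of 25 symbols. In Ha-ras tumors against no-PB control liver 4 were higher and none lower, beside 13.9% of all antibodies called. GSK3B phosphorylated at serine 9 (GSK3B_P-S9), which holds this kinase inactive, rose 2.40-fold (limma adjusted p = 0.00965) and total GSK3B 1.31-fold (adjusted p = 0.0297). STAT3, a cytokine-activated transcription factor deacetylated by class I enzymes, rose 1.54-fold (adjusted p = 0.027) and STAT3_P-S727 1.60-fold (adjusted p = 0.0144). Between the tumors 4 of the 12 were lower in Ctnnb1 tumors, beside 13.3% of all antibodies. They were STAT3, STAT3_P-S727, GSK3B_P-S9 and the hepatocyte transcription factor HNF4A, by 1.84-, 1.64-, 1.97- and 1.40-fold. STAT3 and STAT3_P-S727 also passed the difference between the arms, at -0.91 ± 0.23 and -1.07 ± 0.23. STAT3_P-S727 was weak, under 2 times its blank in 3 of 7 Ctnnb1 tumors, 3 of 3 PB control livers, 2 of 3 no-PB control livers and 1 of 3 Ha-ras tumors. GSK3B_P-S9 was under that limit in 2 of 7 Ctnnb1 tumors, 2 of 3 PB control livers and 1 of 3 no-PB control livers. No antibody of this list passed in Ctnnb1 tumors against PB control liver or between the control groups. None of 30 other chromatin proteins listed had an antibody on the array. The 14 antibodies of the cell cycle list and the 2 loading references, ACTB and GAPDH, gave no call in any comparison. The references spread widely, so the absence of a call does not show even loading. GAPDH ran from 0.0975 to 1.85 RFI and ACTB from -0.0459 to 4.03. GAPDH was under 2 times its blank in 4 of 7 Ctnnb1 tumors, 1 of 3 PB control livers and 2 of 3 Ha-ras tumors. The median log2 difference of the 2 references was -1.91 in PB against no-PB control liver. Of the 6 hepatocyte antibodies, 2 were lower in Ha-ras tumors than in no-PB control liver, both to CYP2E1.

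Over the 16 samples, the antibody most like HDAC2 was HDAC3 (Pearson r of 0.91, Spearman rho of 0.91, and r of 0.84 on deviations from group means). Outside the members, among 86 antibodies at 2 times their blank or more in all samples, HDAC2 was most like PIK3R1 and JAK2 with an r of 0.84 each. HIST1H3A was most like PPP2CB_P-Y307 (r of 0.86), HIST1H3A_DM-K4 like JAK2 (0.84) and HIST1H4A_A-K8 like RPS6KA4 (0.93). For 6 of the 11 members no antibody outside the members reached 0.8. These values describe samples that share a centring, and no test was made of them.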

How the data were processed

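The authors deposited an intensity (RFI) per antibody and sample for 183 rows, of which 158 are antibodies, 19 blanks and 6 Alexa647 rows. Any earlier scaling was not given in the sources used here. Per the labels' protocols, lysates were made from ball-milled frozen liver in 8 volumes of denaturing buffer and read with fluorescent secondary antibodies. The authors' deposited log2 value table equals log2 of the blank-subtracted, scaled intensity less the median of the arm's 3 controls, within 0.01 log2 in all 16 samples for 137 antibodies. That match gave each antibody its blank, and a signal under 2 times its blank was called dim. HDAC6, HIST1H3A_P-S10 and HIST1H3A_TM-K27 matched in the 10 samples of the PB arm only.

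Intensities were log2 transformed and centred on each sample's median over antibodies positive in all samples. A limma fit (limma 3.58.1, R 4.3.3) of 4 group means over the 16 samples, with 12 residual and 2.65 prior degrees of freedom, gave 5 comparisons, adjusted by Benjamini-Hochberg over 158 antibodies (or 49 modified-to-total pairs) at 0.05. The 3 non-positive values, none in members, were treated as missing. GLUL was therefore fitted without Ctnnb1 tumor 6. The fit was tested on simulated data. Groups and numbers came from sample titles. Every member is named. From each list, called antibodies are named, at most 4 per comparison, and likeness partners at an r of 0.8 or more, except that the partner of HDAC6 is not reported here. GLUL and CYP1A2_1 in single samples, the Aurora kinases and the loading references are named beyond that rule, chosen after their values were seen. Members and lists were chosen with earlier results of these data known. Alternatives changed scaling, normalization, blank, source, samples, prior, weights, filter and pairing. The number of arrays limits the precision.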

Additional observations from a re-analysis of the deposited data

Results flagged for a closer look

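Total H3 in Ctnnb1 tumor 3 lay far above the other 6 Ctnnb1 tumors, at a centred log2 signal of 5.49, which is 45.1 times the sample median. The next highest Ctnnb1 tumor read 21.0 times. It was 1 of 22 sets of values examined for a sample far from the others, and chance marks about 1 set in 20.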

How the results depend on the processing

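Of 1015 member values under 26 alternatives, HDAC6 between the tumors was the single difference called in any of them, and the pairs gave 0 calls in each alternative run for them, out of 10 to 25 pair results. Uncalled differences took the other sign in 113 of the 1015 values and stayed uncalled. The count of members called between the tumors, 1, became 0 with Alexa647 scaling, no centring, quantile normalization, the blank subtracted, array weights and antibodies at 2 times the blank only, which leaves 5 members and not HDAC6. HDAC6 then differed by -0.51, -0.44, -0.54, -1.55 and -0.56 (limma adjusted p = 0.128, 0.174, 0.0935, 0.0618 and 0.136). Leaving out each sample in turn gave 0 to 1 calls, 0 without Ctnnb1 tumors 1, 2, 3 or 4 (adjusted p = 0.0524, 0.0686, 0.0569 and 0.0584) or Ha-ras tumors 2 or 3 (0.173 and 0.101), and the cause was not tested. HDAC2 in Ctnnb1 tumors against PB control liver ran from -0.37 to -0.01 over 19 alternatives with adjusted p of 0.0764 to 0.953. Scaling to Alexa647 rows moved the median of all antibodies in that comparison from -0.14 to 0.07.

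Replicate numbers were not taken to pair samples, since the labels do not say so and not every same-numbered tumor and control had an r of deviations over 0.1. The values were all positive, at 0.0951, 0.128 and 0.225 in the PB arm and 0.611, 0.0928 and 0.00615 in the other. With a replicate block, 1 member was called between the tumors (HDAC6, -0.86, adjusted p = 0.0359) and 0 in the other comparisons and pairs. Over all antibodies, calls in PB against no-PB control liver were 3, and 5 with no centring, 8 with those groups alone, 5 with array weights and 0 with the block. In Ctnnb1 tumors against PB control liver array weights gave 1. For the difference between the arms, 8 became 3 with Alexa647 scaling or the authors' values, 17 with array weights and 15 without Ctnnb1 tumor 6. Signals near the blank limit what can be said of HDAC6, HIST1H3A_P-S10 and HIST1H3A_TM-K27.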
